A study of Homo sapiens with 12 samples.

Results

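The JAK and STAT genes described here are JAK1, JAK2, TYK2, STAT2, STAT3, STAT5A, STAT5B, STAT6 and SOCS3. They were chosen by name, as the rows of the deposited table with these gene names, and make up 9 of its 20212 genes. The cells were PANC-1, a line established from a human pancreatic carcinoma and labelled as pancreatic duct, kept in medium with serum. The cells received the solvent DMSO (0 nM rapamycin, 3 replicates) or 50 nM rapamycin for 60 min (3 replicates), and each replicate gave 1 library of ribosome footprints (RF, the mRNA fragments that ribosomes protect from nuclease) and 1 library of total RNA, 12 in all. Rapamycin inhibits mTORC1, the kinase complex that links growth signals to mRNA translation, and the comparison asks which mRNAs gain or lose ribosomes per mRNA when it is blocked. All groups are of this single line, and the labels number the replicates without saying how separately they were grown, so p-values measure the spread between these libraries.

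Cytokines such as interleukin-6 and the interferons bind receptors that carry JAK kinases. The activated kinases phosphorylate STAT proteins, which pair, enter the nucleus and switch on target genes. SOCS3 is among those targets and acts back on the receptor and its JAK kinase, so the pathway limits itself. STAT3 is known in pancreatic cancer for its activation by interleukin-6 and related cytokines.

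The RF libraries were shallow, with 278835 to 1574723 counts, against 78081241 to 94293744 counts in the total RNA libraries. With no read on a gene, a level of up to 3 counts remained possible, equal to between 1.91 and 10.8 CPM (the count scaled to its library's total) for RF and to no more than 0.0384 CPM for total RNA, counting error only. The epithelial keratins KRT8, KRT18 and KRT19 were abundant in total RNA, with KRT8 at 3459 to 3602 CPM. SOX9 lay at 82.7 to 93.1 CPM and CDH1 at 32.8 to 35.9 CPM. The other epithelial and duct markers were low, with EPCAM at 7.30 to 8.33 CPM, KRT7 at 5.38 to 6.84 CPM and MUC1 at 3.02 to 8.12 CPM. Of the 6 leukocyte markers, CD68, a lysosomal protein, lay at 104 to 120 CPM and the other five, PTPRC among them, at no more than 1.08 CPM. The 6 fibroblast markers summed to 5.65 to 9.11 CPM, mostly from the collagen gene COL1A1 at 3.62 to 5.42 CPM, with LUM at no more than 0.302 CPM. Endothelial markers summed to at most 1.65 CPM and acinar and islet markers to at most 0.794 CPM. Libraries came from whole cultures, so a lower level per cell and fewer cells with that level cannot be told apart.

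Total RNA of the 9 genes spanned a wide range in DMSO. In FPKM, which is scaled to transcript length, STAT3 was the highest at 130 ± 3.11 (SD, n = 3), followed by the kinase JAK1 at 73.7 ± 1.27 (SD, n = 3). STAT5B lay at 44.6 ± 0.254, SOCS3 at 40.4 ± 1.99, TYK2 at 30.9 ± 5.18, STAT6 at 23.2 ± 1.78, STAT2 at 20.1 ± 0.423 and STAT5A at 12.02 ± 0.587 FPKM (SD, n = 3 each). JAK2 was the lowest at 1.77 ± 0.109 FPKM (SD, n = 3). No pair of neighbours in this order overlapped between DMSO replicates, although STAT5B exceeded SOCS3 by only 1.11-fold. STAT5A was thus the scarcest of the STAT mRNAs in the group.

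**Figure D1:**
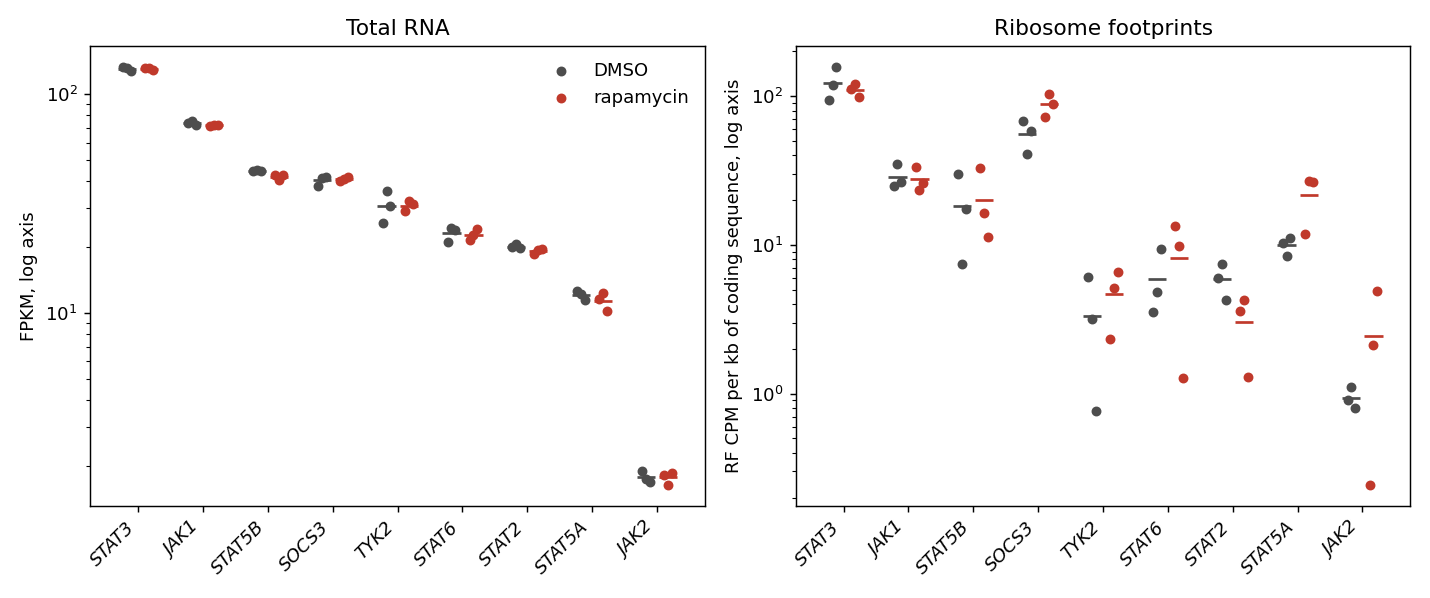
Levels of the 9 genes in each replicate (points; short lines are means of 3), as total RNA in FPKM at left and as RF CPM per kilobase of coding sequence at right, both on log axes. Replicates of total RNA lie close together, with STAT3 near 130 FPKM and JAK2 near 1.77, whereas RF points of TYK2, STAT6, STAT5B and JAK2 spread widely. STAT5A and STAT5B are scaled to their full coding length, with the stretches that they share included.

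Footprints per kilobase of coding sequence followed another order. STAT3 again came first, with 94.5, 118 and 157 RF CPM per coding kilobase in DMSO replicates 1, 2 and 3. SOCS3 came next with 68.4, 41.0 and 58.4, and JAK1 followed with 24.9, 34.8 and 26.5. From JAK1 downwards, through STAT5B, STAT5A, STAT6, STAT2, TYK2 and JAK2, each gene overlapped its neighbour in the order between DMSO replicates. STAT5A and STAT5B were scaled to their full coding length. Footprints from stretches that these paralogs share, 30.8% and 31.1% of their windows of 28 nt, could not be counted, so both levels may lie too low. JAK2 had a mean of 0.939 ± 0.158 RF CPM per coding kilobase (SD, n = 3). It rested on only 8 RF counts summed over DMSO and 12 over rapamycin, and TYK2 on 20 and 32.

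Translation efficiency (TE) was taken per replicate as log2 RF CPM minus log2 RNA CPM, with a prior count of 2. All 9 genes lay below the median of the 13329 tested genes in DMSO, which was -0.53. Among them TE ran from -2.41 for TYK2 to -0.79 for JAK2. The JAK2 value came from 1, 3 and 4 footprints, and its place at the upper end depended on the prior count. Without a prior, mean DMSO levels were 3.19 RF against 9.65 RNA CPM for JAK2, and 23.7 against 46.3 CPM for STAT5A, a higher ratio. STAT5A, at -0.83 ± 0.24 (SD, n = 3), stood above STAT5B, at -2.33 ± 0.95 (SD, n = 3), and above JAK1, at -2.08 ± 0.25 (SD, n = 3). The RNA count takes in the whole of each mRNA, and the coding part made up between 24.7% of the longest coding transcript of SOCS3 and 83.9% of that of TYK2, against a median of 54.6% over tested genes.

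STAT5A and SOCS3 lay higher in TE in every rapamycin replicate than in every DMSO replicate, without a detected difference in total RNA, and STAT2 lay lower. The remaining 6 genes overlapped between treatments in TE, and none of the 9 passed the test across all genes. All 9 met the count minimum of 10 RF and 10 RNA counts, JAK2 only through rapamycin (8 RF counts under DMSO, 12 under rapamycin). In edgeR's quasi-likelihood test of TE with Benjamini-Hochberg adjustment, 0 of 9 had an adjusted p under 0.05, as did 0 of the 13329 genes tested (0%). This fit gave RF and RNA libraries a shared coefficient of variation, 24.4% over all genes, where RF fitted alone had 54.9% and RNA 5.31%. Its TE intervals and p-values may therefore understate the spread of RF. For STAT5A the standard error was 0.44 in TE against 0.53 in RF alone, and for SOCS3 0.31 against 0.45. At an unadjusted p under 0.05, 2 of the 9 were higher (STAT5A and SOCS3), where 6.17% of all tested genes were, and 0 were lower, where 6.42% were. Every rapamycin replicate lay above every DMSO replicate in TE for the same 2 genes, against 4.80% of all tested genes, and below for STAT2, against 6.19%. Over the 9 genes the TE log2 fold changes had a median of 0.53 (0.066 without rapamycin replicate 1), and over all tested genes a median of -0.06. At a minimum of 50 counts, which leaves out JAK2, the median of the members was 0.49.

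DESeq2's Wald test, run as an alternative, called 2 of the 9 genes at an adjusted p under 0.05, STAT5A (adjusted p = 0.0307) and SOCS3 (adjusted p = 0.0261), both higher. That test called 5.35% of 12804 genes higher and 4.74% lower. limma voom, in which RF and RNA libraries had their own variances, called 0 of the 9, with an adjusted p of 0.715 for STAT5A and of 0.828 for SOCS3. The study picked out STAT5A on these same libraries, so its values here are not independent evidence of its direction. Separately, the study reports more total STAT5A protein on immunoblots after rapamycin, an assay that these libraries do not include.

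**Figure D2:**
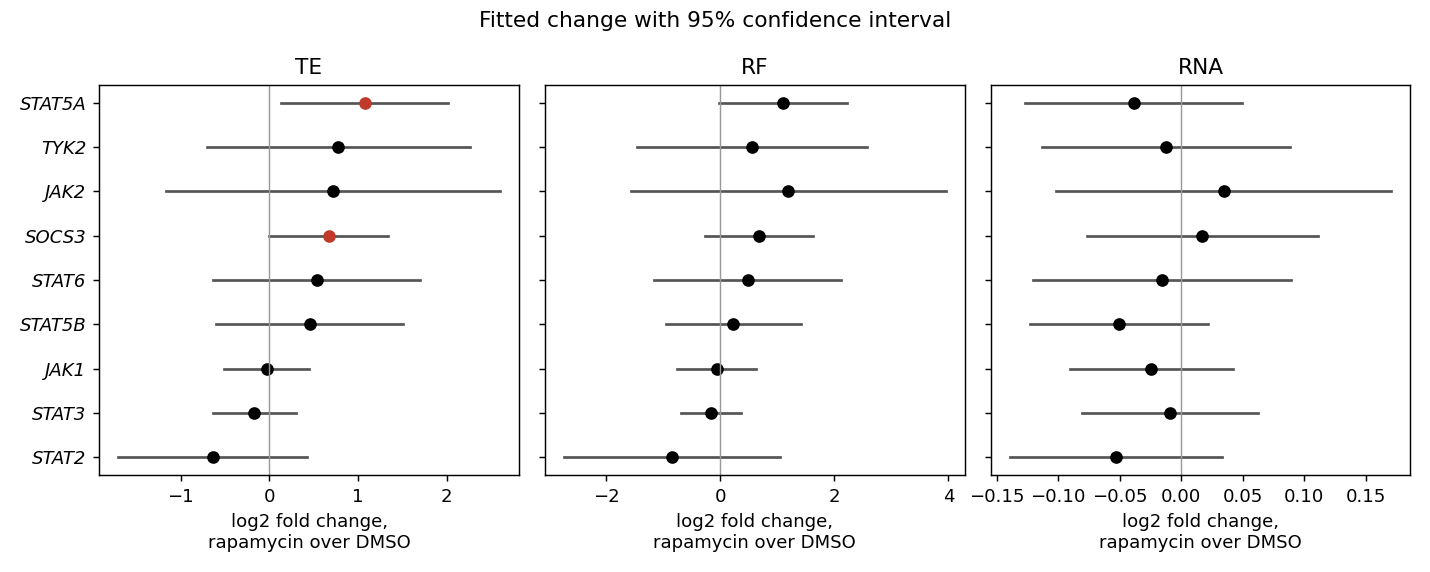
Fitted log2 fold change (points) of TE, RF and total RNA in rapamycin over DMSO for each gene, with 95% confidence intervals (bars) and a separate horizontal scale in each panel; red points have an unadjusted p under 0.05. Only STAT5A at 1.08 and SOCS3 at 0.67 in TE are red, and all total RNA points lie between -0.05 and 0.03.

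The kinases showed no shift that exceeded their spread. JAK1, the kinase shared by many cytokine receptors, drew 28, 96 and 135 footprints under DMSO (replicates 1, 2 and 3) against 139, 67 and 27 under rapamycin, in the same order. Scaled to library size by the TMM method this was 86.1, 121 and 91.7 CPM against 115, 81.1 and 89.8 CPM, and the treatments overlapped. The fit gave JAK1 a log2 fold change in TE of -0.03 (95% confidence interval -0.51 to 0.45, edgeR adjusted p = 0.974), the narrowest interval of the 9 together with that of STAT3.

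TYK2, which serves interferon and interleukin-12 receptors, drew 7, 9 and 4 footprints under DMSO against 10, 15 and 7 under rapamycin. In CPM the DMSO replicates gave 21.5, 11.3 and 2.72, and the rapamycin replicates 8.29, 18.2 and 23.3. The groups overlapped, and the log2 fold change in TE of 0.78 had an interval of -0.70 to 2.26 (edgeR adjusted p = 0.683) and turned to -0.04 without DMSO replicate 3. JAK2, the kinase of the growth hormone and erythropoietin receptors, was counted 1, 3 and 4 times in DMSO and 1, 6 and 5 times in rapamycin. At this depth no difference was detectable for JAK2, whose interval ran from -1.17 to 2.60.

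STAT5A and STAT5B are paralogs activated by interleukin-2, prolactin and growth hormone, among others. Both lie on chromosome 17 of GRCh37, STAT5A from 40439565 to 40463961 on the plus strand and STAT5B from 40351194 to 40440651 on the minus strand, so that their ends overlap. The overlap took in 415 exonic bases, none of them coding, and whether the counting used strand is not given in the sources used here. The coding sequences aligned with 87.0% identity. Of the 2358 windows of 28 nt (about a footprint's length) in the STAT5A coding sequence, 727 (30.8%) recurred unchanged in a STAT5B transcript, and 726 of the 2337 windows of STAT5B (31.1%) recurred in STAT5A. The other 7 genes shared 0 such windows with any other gene. Since the authors counted only uniquely aligned reads, footprints from the shared stretches could be assigned to neither gene.

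The longest identical stretch within a single exon of both genes was 156 nt, and it is shown because a footprint inside it fits either mRNA. In STAT5A (chr17:40452733-40452888, plus strand, exon 9) and in STAT5B (chr17:40370741-40370896, minus strand, exon 8) it reads the same.
Shared exon of STAT5A and STAT5B: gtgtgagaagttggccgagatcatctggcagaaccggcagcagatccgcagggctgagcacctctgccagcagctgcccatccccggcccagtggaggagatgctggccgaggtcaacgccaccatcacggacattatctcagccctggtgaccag
The last 60 nt of the coding sequences, shown for contrast with the stop codon in capitals, are where the paralogs part, at chr17:40462628-40462687 (plus strand) and chr17:40353756-40353815 (minus strand).
STAT5A coding end: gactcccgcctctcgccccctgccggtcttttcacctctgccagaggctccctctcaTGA
STAT5B coding end: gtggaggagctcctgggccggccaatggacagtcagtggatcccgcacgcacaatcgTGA
Footprint counts of both genes therefore come from the parts that tell them apart, such as these ends. Total RNA was aligned as read pairs, so its counts need not be confined to those parts. The TE levels of both paralogs may thus lie too low against those of the other genes, and no correction was made.

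Footprints on STAT5A numbered 8, 16 and 39 in replicates 1, 2 and 3 of DMSO, against 34, 53 and 19 in those of rapamycin. In CPM the DMSO replicates lay close together at 24.6, 20.1 and 26.5, and the rapamycin replicates at 28.2, 64.1 and 63.2. Rapamycin replicate 1 was thus just above the DMSO range, whereas the other two stood well above it. Total RNA was 45.4, 48.3 and 45.3 CPM in DMSO and 45.8, 44.8 and 44.7 CPM in rapamycin, and it overlapped. The log2 TE was -0.75, -1.10 and -0.65 in DMSO and -0.58, 0.57 and 0.55 in rapamycin (two-sided exact permutation test, p = 0.1, the smallest that 3 replicates against 3 allow). In the edgeR fit TE was 2.11-fold higher, a log2 fold change of 1.08 ± 0.44 (standard error) with a 95% confidence interval of 0.14 to 2.02 and an adjusted p of 0.340. Without rapamycin replicate 2 the log2 fold change was 0.58.

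Those on STAT5B numbered 23, 14 and 61 under DMSO against 93, 32 and 8 under rapamycin, or 70.8, 17.6 and 41.4 CPM against 77.1, 38.7 and 26.6 CPM. These ranges overlapped. The TE of STAT5B had a log2 fold change of 0.46 (95% confidence interval -0.60 to 1.51, edgeR adjusted p = 0.746), or -0.13 without rapamycin replicate 1. The paralogs were compared directly as log2 TE of STAT5A minus log2 TE of STAT5B in each replicate. This difference was 0.74, 2.26 and 1.51 in DMSO and 0.72, 2.78 and 3.33 in rapamycin. STAT5A exceeded STAT5B in all 6 replicates. The change of the difference with rapamycin, 0.77, did not exceed the spread (two-sided exact permutation test, p = 0.5), and it was 0.25 without rapamycin replicate 3 and 1.54 without rapamycin replicate 1.

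STAT2, the partner of IRF9 in the type I interferon response, was the only one of the 9 with lower TE in every rapamycin replicate. It was counted 5, 15 and 16 times in the DMSO RF libraries and 11, 9 and 1 times in those of rapamycin. In CPM the values were 15.4, 18.9 and 10.9 in DMSO and 9.12, 10.9 and 3.33 in rapamycin, so footprints alone touched between the groups. The log2 TE was -1.56, -1.35 and -1.92 in DMSO against -2.11, -1.93 and -3.14 in rapamycin (two-sided exact permutation test, p = 0.1). Rapamycin replicate 2 and DMSO replicate 3 were nearly equal, and the lowest value came from a single count. Footprints alone did not separate, so the separation in TE rests on matching RF and RNA libraries by their number. The fitted log2 fold change of -0.64 had an interval of -1.70 to 0.43 (edgeR adjusted p = 0.632), and it was -0.35 without DMSO replicate 2.

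STAT3, which carries signals of the interleukin-6 family, was the best covered gene, with 71, 217 and 535 footprints under DMSO against 309, 232 and 68 under rapamycin. Its footprints amounted to 218, 273 and 363 CPM in DMSO and 256, 281 and 226 CPM in rapamycin, and the rapamycin values fell inside the DMSO range. The log2 fold change in TE was -0.17 (95% confidence interval -0.63 to 0.30, edgeR adjusted p = 0.795). A rise of STAT3 in TE above 1.23-fold lay outside this interval, and for RF alone a rise above 1.28-fold did. STAT6, the mediator of interleukin-4 and interleukin-13, drew 3, 10 and 36 footprints under DMSO against 42, 21 and 1 under rapamycin. Rapamycin replicate 3 thus held the lowest STAT6 level at 3.33 CPM, and replicate 1 the highest at 34.8 CPM. The log2 fold change in TE of 0.53 had an interval of -0.63 to 1.70 (edgeR adjusted p = 0.732), and it was 0.066 without rapamycin replicate 1 and 1.16 without DMSO replicate 3.

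SOCS3, the feedback inhibitor, drew 15, 22 and 58 footprints under DMSO against 59, 58 and 18 under rapamycin. In CPM it lay at 46.1, 27.6 and 39.4 in DMSO and at 48.9, 70.2 and 59.9 in rapamycin, so that all rapamycin replicates were higher, the closest by 48.9 against 46.1 CPM. Total RNA was 104, 113 and 116 CPM in DMSO and 110, 113 and 115 CPM in rapamycin. The log2 TE was -1.11, -1.91 and -1.47 in DMSO and -1.10, -0.64 and -0.88 in rapamycin (two-sided exact permutation test, p = 0.1). DMSO replicate 1 and rapamycin replicate 1 were nearly equal on this scale. The fit gave a 1.59-fold higher TE, a log2 fold change of 0.67 ± 0.31 (standard error, 95% confidence interval 0.00 to 1.34), with an edgeR adjusted p of 0.395.

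**Figure D3:**
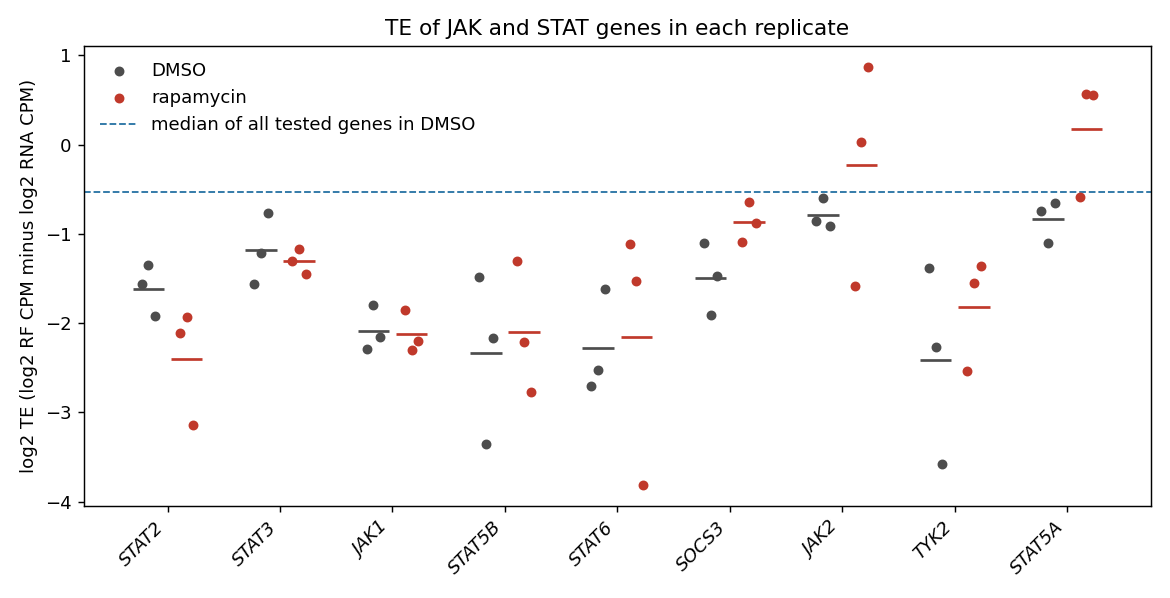
The log2 TE of each gene in each replicate (points; short lines are means of 3), ordered by fitted change, with the median of all tested genes in DMSO as a dashed line at -0.53. STAT5A and SOCS3 in rapamycin lie above all their DMSO points and STAT2 below, with rapamycin replicate 1 of STAT5A and SOCS3 close to the DMSO range.

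Tested on RF alone with edgeR, 0 of the 9 genes had an adjusted p under 0.05 (0% of all tested genes), and 0 had an unadjusted p under 0.05, where 1.76% of all tested genes were higher and 1.92% lower. All rapamycin replicates exceeded all DMSO replicates in RF for STAT5A and SOCS3, a separation seen in 5.24% of all tested genes, and for 0 of the 9 they all lay below, seen in 4.58%. The log2 fold change in RF was 1.10 for STAT5A (95% confidence interval -0.02 to 2.22) and 0.67 for SOCS3 (interval -0.27 to 1.62).

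The bases around the start codon are shown for the 3 genes whose treatments separated in TE, since they are part of what the scanning ribosome reads. Each line gives the 9 bases before the start codon, the start codon in capitals and the base after it, from GENCODE transcripts on GRCh37.
STAT5A, chr17:40441421-40441433, plus strand, exon 3: tgaacggccATGg
SOCS3, chr17:76355173-76355185, minus strand, exon 2: ccgtgcgccATGg
STAT2, chr12:56750352-56753843, minus strand, split by an intron: agagcccaaATGg
STAT5A and SOCS3 carry a purine 3 bases before the start codon and a G after it, as the Kozak consensus does, and STAT2 lacks the purine. Over the 9 genes, 6 had the purine (85.6% of tested genes) and 6 had the G (52.5%). None of the 9 transcripts began with a C followed by at least 4 pyrimidines, the TOP motif known for its control by mTORC1, which 4.52% of tested genes carried at the annotated end.

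No difference in total RNA was detected for any of the 9 genes. With edgeR, 0 of 9 had an adjusted p under 0.05 (0% of all tested genes) and 0 an unadjusted p under 0.05, where 3.32% of all tested genes were higher and 2.51% lower. All 9 overlapped between treatments, where 8.22% of all tested genes lay above and 6.61% below in every rapamycin replicate. The fitted log2 fold changes ran from -0.05 for STAT2 to 0.03 for JAK2. For STAT5A the interval was -0.13 to 0.05 and for SOCS3 -0.08 to 0.11.

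The authors' FPKM of single transcripts showed which forms made up this RNA. A single coding transcript of 1154 codons carried most of the JAK1 signal with 67.8 ± 0.756 FPKM in DMSO and 66.8 ± 1.53 in rapamycin (SD, n = 3 each). Summed over the transcripts found in the annotation, protein-coding forms held 93.1 ± 1.69% of the JAK1 FPKM and 88.4 ± 0.632% of that of STAT3, but 49.98 ± 4.81% for TYK2 and 17.4 ± 1.92% for STAT2 (SD, n = 6 libraries each). The rest was annotated as retained introns, decay targets or forms without a defined coding sequence. For STAT5A these transcripts added up to a mean of 6.68 FPKM over the 6 libraries, against 12.02 FPKM listed for the gene in DMSO and 11.4 in rapamycin, so its forms were only partly covered.

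STAT3 occurs as a full-length form and as a shorter form, STAT3 beta, that lacks the transactivation domain. In total RNA, 3 transcripts of 770 or 769 codons and 1 of 722 codons reached 10 FPKM. The short transcript made up 12.6%, 9.76% and 12.3% of their sum in DMSO and 11.5%, 9.71% and 10.6% in rapamycin. These shares overlapped (two-sided exact permutation test, p = 0.4). Of 38 transcripts of the 9 genes that were tested with limma-trend, 0 had an adjusted p under 0.05 (0.00773% of all tested transcripts) and 1 had an unadjusted p under 0.05 (4.86% of all tested transcripts). That transcript, a STAT3 form of 770 codons, was listed at 16.3, 17.3 and 17.2 FPKM in DMSO and 19.97, 21.1 and 17.95 FPKM in rapamycin, a log2 fold change of 0.20 on the log2(FPKM + 1) scale (limma adjusted p = 0.987).

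Other genes of the pathway were read from lists of ligands, receptors, inhibitors, adaptors and targets, and 0 of them had an adjusted p under 0.05 for TE. Over all tested genes, 46.3% had a fitted TE change above 0, and the unadjusted p was under 0.05 with higher TE for 6.17% and with lower TE for 6.42%. JAK3, a kinase of lymphocytes, had 13 RF counts in all. Of 26 cytokines and ligands only 4 could be tested. LIF, a member of the interleukin-6 family, had a log2 fold change in TE of -0.00 at 73 RF counts. IL6 drew 0, 32 and 15 footprints under DMSO against 0, 12 and 0 under rapamycin, so that 1 replicate of each treatment held most of its footprints. The single ligand with an unadjusted p under 0.05 was CSF2, named after its values were seen, with 0 RF counts under DMSO against 19 under rapamycin, 18 of them in a single library.

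Receptor chains were detected more often, with 17 of 35 tested. Of the 17, 10 had a fitted TE change above 0 (46.3% over all tested genes), and the median was 0.17 on the log2 scale. IL4R, the interleukin-4 receptor, had 1.20 (edgeR adjusted p = 0.493, and 0.50 without rapamycin replicate 1), IFNGR2, a chain of the interferon gamma receptor, 0.63 (edgeR adjusted p = 0.497, and 0.39 without DMSO replicate 2), and IL6ST, the gp130 chain shared by the interleukin-6 family, -0.56 (edgeR adjusted p = 0.564). EPOR, the erythropoietin receptor, named after its value was seen, alone had an unadjusted p under 0.05, at 17 RF counts. These were 3 under DMSO and 14 under rapamycin, so EPOR met the minimum of 10 only through rapamycin. IL11RA (5 against 20) and LEPR (2 against 8), both with a fitted change above 0, also fell short of it without their rapamycin counts. IL20RB (8 against 4), with a fitted change below 0, needed the counts of both treatments. These chains too are named after their values were seen. Over the 11 chains with at least 50 RF counts the median was -0.02.

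Inhibitors and phosphatases had 15 of 18 genes tested, and the median of their TE log2 fold changes was 0.36. SOCS2, a feedback inhibitor of growth hormone signalling, drew 4, 8 and 9 footprints under DMSO against 24, 14 and 9 under rapamycin. The fitted TE change on the log2 scale was 1.32 ± 0.39 (standard error, edgeR adjusted p = 0.231), with all rapamycin replicates above all DMSO replicates in TE. PTPN2, a phosphatase of JAK1 and STAT proteins, drew 13, 35 and 41 footprints under DMSO against 26, 8 and 1 under rapamycin. It had a log2 fold change of -1.31 ± 0.50 (standard error, edgeR adjusted p = 0.311), with all rapamycin replicates below. This value was -2.10 without rapamycin replicate 1 and -0.91 without rapamycin replicate 2. PTPN1, its relative that acts on JAK2 and TYK2, had 0.95 (edgeR adjusted p = 0.404). In this list 2 genes (SOCS2 and PTPN6, the latter named after its value was seen) had an unadjusted p under 0.05 with higher TE and 1 (PTPN2) with lower TE, where 6.17% and 6.42% of all tested genes did.

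Of the adaptors and nuclear partners, 11 were tested and their median was 0.02. GRB2, the adaptor that couples receptors to RAS, drew 16, 26 and 69 footprints under DMSO against 99, 71 and 26 under rapamycin, and its fitted change on the log2 scale was 1.004 ± 0.28 (standard error, edgeR adjusted p = 0.231). NMI, a protein that binds STATs, drew 17, 20 and 63 footprints under DMSO against 22, 13 and 6 under rapamycin, and its value was -1.06 ± 0.34 (standard error, edgeR adjusted p = 0.244). Both were separated between treatments, in opposite directions. IRF9, the DNA-binding partner of STAT2, had 0.55 (edgeR adjusted p = 0.751).

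Targets of STAT3 and STAT5 had 19 of 21 genes tested, a median of 0.20 and 2 genes higher at an unadjusted p under 0.05 (6.17% of all tested genes), SOCS2 and VEGFA. VEGFA, the vascular growth factor, drew 3, 11 and 17 footprints under DMSO against 67, 20 and 6 under rapamycin, and its TE changed on the log2 scale by a fitted 1.57 ± 0.46 (standard error, edgeR adjusted p = 0.231), or 0.89 without rapamycin replicate 1, its best covered library. SERPINA3, an acute phase protease inhibitor, had -0.87 (edgeR adjusted p = 0.568), which was -0.27 without DMSO replicate 2, -0.30 without rapamycin replicate 1, -1.46 without DMSO replicate 3 and -1.78 without rapamycin replicate 2. MYC, CCND1 and MCL1, textbook STAT3 targets named beyond the rule, lay at 0.23, -0.11 and 0.20.

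Interferon-stimulated genes, the targets of STAT2 with IRF9, had 23 of 28 genes tested, and 20 of the 23 had a fitted TE change above 0, where 46.3% of all tested genes did. The median of their TE log2 fold changes was 0.29. At the unadjusted threshold of 0.05, 5 of them passed, all with higher TE, against 6.17% of all tested genes. IFI6 drew 7, 9 and 11 footprints under DMSO against 33, 17 and 7 under rapamycin, and a log2 fold change of 1.08 ± 0.44 (standard error, edgeR adjusted p = 0.333), which was 0.52 without DMSO replicate 3. IFIT3, an antiviral RNA-binding protein, had 0.95 ± 0.38 (standard error, edgeR adjusted p = 0.340), while its relative IFIT5 had -0.86 ± 0.44 (standard error, edgeR adjusted p = 0.437). Leaving out 1 replicate moved IFIT5 to between -1.80 (rapamycin replicate 1) and -0.35 (DMSO replicate 2). The other 3 genes at that unadjusted level, IFITM3, OAS1 and IRF7, were named after their values were seen. OAS1 had 2 RF counts under DMSO against 21 under rapamycin, 19 of them in a single library. It thus met the minimum of 10 RF counts only through rapamycin. ISG20 (4 against 13) and OAS2 (6 against 22), both with a fitted change above 0, met it in the same way. Summed over the 23 genes and scaled by TMM, footprints came to 914, 1069 and 942 CPM in DMSO replicates 1, 2 and 3 and to 1273, 1077 and 1321 CPM in those of rapamycin, so that the groups were just separated. IFITM3 and IFIT1 held about as many RF counts as the other 21 genes together, and over those 21, which had 50.3% of the counts, the sums were 399.9, 576 and 488 CPM against 628, 516 and 682 CPM and overlapped. Total RNA of the 23 genes stayed at 923 to 945 CPM in DMSO and at 915 to 933 CPM in rapamycin. The list was tested by no set test, and the direction of its sum is a description of these libraries.

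**Figure D4:**
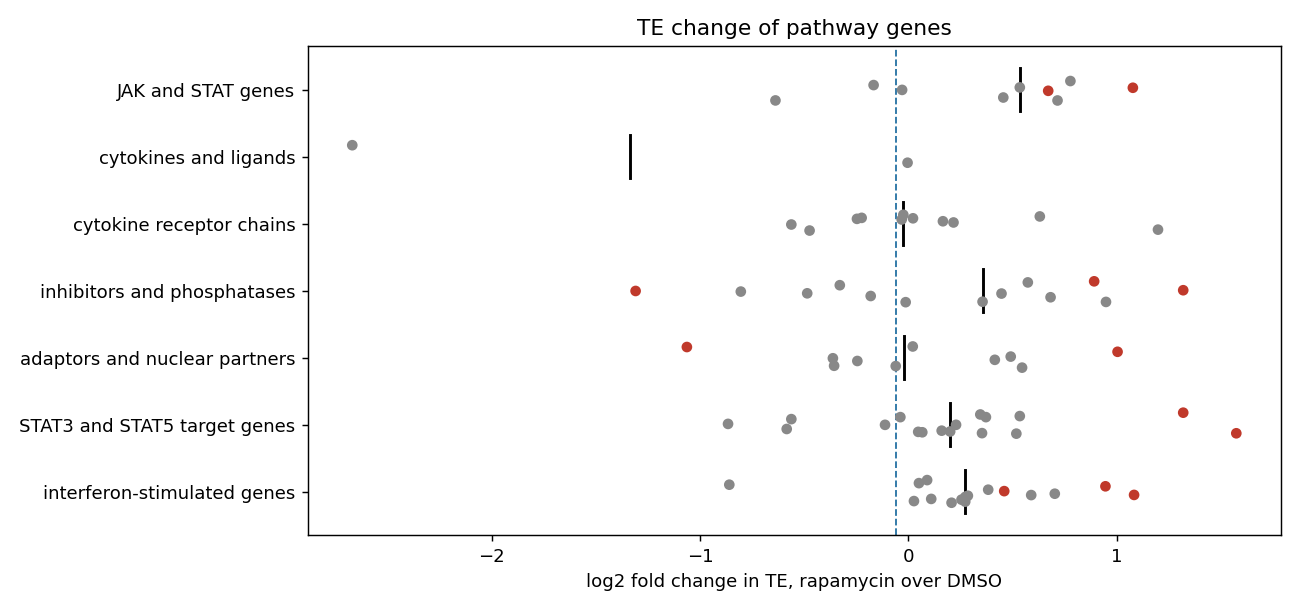
Log2 fold change in TE of each tested gene of the pathway lists with at least 50 RF counts, and of all 9 JAK and STAT genes in the top row; black bars are medians of the genes drawn, the dashed line is the median of all tested genes (-0.06), and red points have an unadjusted p under 0.05. Among the interferon-stimulated genes drawn, IFIT5 at -0.86 is the only point below 0. MX1 at -1.68 (47 RF counts) and BST2 at -0.12 (37 RF counts) were tested but are not drawn, and are named after their values were seen.

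The 3 genes whose TE over the 6 replicates ran closest to that of STAT5A were MBLAC1, RAB2A and LRPAP1, with root mean square differences of 0.14, 0.18 and 0.19 on the log2 scale after centring, among 6130 genes with at least 100 RF counts. MBLAC1 drew 6, 9 and 24 footprints under DMSO against 21, 42 and 19 under rapamycin. These genes were picked for this likeness, so their pattern over the replicates is given by the choice.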

How the data were processed

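The authors removed low-quality RF reads, reads under the minimum length and ribosomal RNA reads, used HISAT2 to align both library types to GRCh37, and deposited the raw counts of uniquely aligned exonic reads per protein-coding gene from featureCounts. They also deposited FPKM of genes and transcripts for total RNA (Cufflinks 2.2.1, cuffnorm); other versions are not given in the sources used here. The count table also holds values of RiboDiff that the authors deposited and that were not used: the ratio of RF to RNA in each treatment, its log2 fold change, and p-values.

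Members were matched by gene name. The counts were tested with edgeR 4.0.16 (R 4.3.3), with TMM factors within each library type, for the 13329 of 20212 genes with at least 10 RF and 10 RNA counts. A robust quasi-likelihood fit of all 12 libraries gave the TE change as the library type by treatment interaction, and RF and RNA were each fitted alone. P-values were adjusted by the Benjamini-Hochberg method over all genes tested. Transcripts with a mean of at least 1 FPKM were tested with limma 3.58.1 (limma-trend, pseudocount 1). DESeq2 1.42.0 served as an alternative, with other count filters, scalings, blocks and left-out replicates; leaving out both smallest RF libraries was chosen after seeing the data. The edgeR fits and limma-trend were tried on simulated data and the permutation test on set values, whereas DESeq2 and limma voom were tried on neither. Intervals and floors cover counting error or replicate spread only, since reads carry no molecular identifiers. Sequences, exons and genes are from GENCODE v44lift37 on GRCh37, another annotation version than the authors'; for each gene the longest coding transcript was read.

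The members and pathway lists were chosen with earlier results of these data known. Named are the 9 members, for each list up to 3 genes with the largest TE change among those with at least 50 RF counts, and the 3 genes nearest to STAT5A. One gene of the pathway lists is not reported here.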

Additional observations from a re-analysis of the deposited data

How the results depend on the processing

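STAT5A and SOCS3 kept a higher TE under all 15 alternatives, with log2 fold changes from 0.58 to 1.47 for STAT5A, the extremes without rapamycin replicates 2 and 1, and from 0.48 to 0.83 for SOCS3, and their adjusted p ran from 0.0307 and 0.0261 with DESeq2 to 1. STAT2 stayed lower, from -0.93 to -0.35. In STAT5A, SOCS3 and STAT2 the treatments did not overlap in TE, so leaving out 1 replicate could hardly turn their direction. The alternatives also all refit the same counts, so the kept direction is no independent evidence. DESeq2 called these 2 of the 9 genes for TE, and every other alternative called 0. For RF, RNA and transcripts, 0 of the 9 genes were called under any alternative run. RF depth limits most values, since JAK2, TYK2 and STAT2 had 20, 52 and 57 RF counts over 6 libraries. DESeq2 also brought 9 other named genes past the threshold in TE, SOCS2, PTPN2, PTPN1, NMI, GRB2, VEGFA, IFI6, IFIT3 and LRPAP1.

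Over all genes, where 0 were called in each direction, DESeq2 called 607 lower and 685 higher in TE, 1 lower and 4 higher in RF, and 4 lower and 25 higher in RNA. Without a count filter, 10 were lower and 10 higher in RF. On log2(FPKM + 1) and on log2(FPKM + 0.1), limma-trend called 1 gene higher in RNA, and 2 without a minimum FPKM. With 1 replicate left out, the count for TE was 0 to 331 lower and 0 to 65 higher, both highest without DMSO replicate 3. For RF it was 0 to 1 lower (1 without DMSO replicate 2) and 0 to 5 higher (5 without rapamycin replicate 1), and for RNA 0 to 4 lower and 0 to 683 higher, both highest without DMSO replicate 3. Called transcripts numbered 3, or 300 with no minimum FPKM, and with 1 replicate left out from 1 (without rapamycin replicate 3) to 7 (without DMSO replicate 3). The cause of these shifts was not tested.

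DMSO and rapamycin replicates of one number did not deviate together (correlations of -0.22 to -0.06, none the best of its sample), so the labels' numbers were not taken to pair the treatments. RF and RNA libraries of one number did not deviate together either (correlations of -0.096 to 0.008, none the best of its sample). TE per replicate still matched them by number, as labelled. The replicate block gave 1 gene higher in TE, 2 lower and 4 higher in RF, and 0 transcripts, and 0 of the 9 genes in each. It turned IRF9 to -0.16 in TE.

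Signs changed for genes near 0 or of few counts. In TE, JAK1 was 0.020 with DESeq2, and LIF was 0.038 with DESeq2, 0.025 without a count filter and 0.19 without both smallest RF libraries (DMSO replicate 1 and rapamycin replicate 3), a setting chosen after seeing the data. With 1 replicate left out, TE ran from -0.22 to 0.13 for JAK1, -0.042 to 1.30 for TYK2, -0.32 to 0.054 for STAT3, -0.13 to 0.78 for STAT5B, -0.24 to 0.27 for LIF, -0.89 to 0.072 for IL6ST and -0.74 to 1.24 for IRF9. In RF it ran from -0.23 to 0.096 for JAK1, -0.019 to 1.23 for TYK2, -0.32 to 0.029 for STAT3, -0.33 to 0.71 for STAT5B, -0.031 to 0.98 for STAT6 and -0.031 to 0.71 for the median of the 9 genes. In RNA, SOCS3 was -0.0046 without a count filter and -0.027 to 0.050 with 1 replicate left out.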
